A study of Homo sapiens with 4 samples.

Results

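GLI1, GLI2, GLI3, PTCH1, SMO, SUFU and HHIP, 7 core genes of the Hedgehog pathway chosen by their symbols, were followed in A673, a cell line from an Ewing sarcoma with the EWSR1-FLI1 fusion gene. All 7 were found among the 23228 genes in the files, and 6 of them had enough counts to be tested. RNA was sequenced in 4 groups with 1 library each: FAT4 siRNA at 48 h, control siRNA at 48 h, FAT4 siRNA at 24 h and control siRNA at 24 h. The control is labelled as a scrambled siRNA, all cells were transfected with Lipofectamine RNAiMAX and grown with serum, and A673 is a single tumour line. FAT4 encodes an atypical cadherin. The labels name the siRNA only as siFAT4, with no sequence and no second siRNA, so a change that comes through FAT4 and one that comes from that siRNA in another way cannot be told apart.

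In Hedgehog signalling a secreted ligand binds the receptor PTCH1, which otherwise holds the membrane protein SMO inactive. Active SMO, at the primary cilium, releases the zinc finger factors GLI2 and GLI3 from the inhibitor SUFU. GLI2 acts mainly as an activator, GLI3 mainly as a repressor, and GLI1 is an activator whose own gene is a target of the pathway. PTCH1 and HHIP, which binds ligands at the cell surface, are also known targets. In Ewing sarcoma cells, GLI1 is known as a gene that EWSR1-FLI1 drives without a Hedgehog ligand.

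Promoter sequence is shown here because PTCH1 is the textbook target of GLI factors. GLI2, SMO and PTCH1 also had lower levels with FAT4 siRNA at both times, before any correction for G and C content. For PTCH1 the fall did not pass the threshold of 0.05 (adjusted p = 0.209 by edgeR). Once G and C content and length were corrected for, little of it was left in PTCH1 (log2 values -0.06 and -0.08, 48 h first) or SMO (-0.03 and -0.13). More was left in GLI2 (-0.40 and -0.20). The windows come from RefSeq on GRCh38.p14 and run from 250 bases before to 50 bases after an annotated start, written 5′ to 3′ on the gene's strand. Of the 7 genes, 5 had windows in that table, 10 windows in all, and GLI1 and GLI3 had no window. The 9 letters TGGGTGGTC, a known binding word of GLI factors, were searched on both strands and occurred in 0.236% of 35116 windows of 300 bases, and in 1 of the 10 windows here. That window is 1 of 5 of PTCH1, and the match, in capitals below, begins 172 bases before the start. Also shown for comparison are 1 window of GLI2 and 1 of SMO, which hold no capitals because they hold no match. A match is a run of letters and not a shown binding site.
PTCH1, chr9:95509217-95509516, minus strand: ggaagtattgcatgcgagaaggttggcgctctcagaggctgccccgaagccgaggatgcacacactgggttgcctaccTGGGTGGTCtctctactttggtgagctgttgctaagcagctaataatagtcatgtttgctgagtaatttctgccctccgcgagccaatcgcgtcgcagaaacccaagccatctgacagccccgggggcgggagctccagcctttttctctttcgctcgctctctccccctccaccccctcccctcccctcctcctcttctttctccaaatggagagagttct
GLI2, chr2:120735618-120735917, plus strand: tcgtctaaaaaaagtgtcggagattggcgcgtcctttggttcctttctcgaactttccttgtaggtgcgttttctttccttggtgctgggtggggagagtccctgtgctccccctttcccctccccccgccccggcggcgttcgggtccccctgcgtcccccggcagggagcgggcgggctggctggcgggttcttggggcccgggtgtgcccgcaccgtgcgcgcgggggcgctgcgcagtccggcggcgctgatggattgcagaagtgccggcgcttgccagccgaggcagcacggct
SMO, chr7:129188383-129188682, plus strand: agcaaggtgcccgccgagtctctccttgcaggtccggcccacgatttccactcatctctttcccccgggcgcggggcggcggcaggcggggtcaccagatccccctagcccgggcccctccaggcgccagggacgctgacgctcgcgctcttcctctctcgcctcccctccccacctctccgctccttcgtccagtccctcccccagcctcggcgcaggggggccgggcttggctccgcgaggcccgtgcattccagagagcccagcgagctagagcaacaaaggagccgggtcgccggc

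The base composition of the windows shown differed, with 57% G and C in the PTCH1 window, 68.3% in the GLI2 window and 72% in the SMO window. A further GLI2 window, not shown, had 46.3%, and the PTCH1 windows ran from 53.3% to 68%. GGAAGGAA, a pair of the GGAA units that EWSR1-FLI1 is known to bind, was in 3.67% of all windows and in 0 of the 10. CCGGAAGT, a word of the wider ETS family, was in 4.14% of all windows and in 0 of the 10. GLI1 and GLI3 have no window among the 10, so neither promoter was searched for these words. All 3 words were searched on both strands.

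Depth and labels were checked first. Counts assigned to genes summed to 15413960 and 19614913 with FAT4 and control siRNA at 48 h, and to 15196813 and 22625833 at 24 h. Levels are given as CPM, counts on a common scale of library size after TMM scaling. A count of 3 stood for 0.133 to 0.197 CPM by plain library totals. The targeted transcript was lower at both times: FAT4 had 60.2 CPM with FAT4 siRNA and 149 CPM with control siRNA at 48 h, and 71.8 against 165 CPM at 24 h (fitted log2 fold change -1.25, SE 0.0978, adjusted p = 8.65e-34 by edgeR). Of 12 Ewing sarcoma markers, which include GLI1, 11 were detected and tested, and 8 were called, 3 higher and 5 lower with the FAT4 siRNA, which is 72.7% of the 11 beside 25.9% of all genes tested (called means an adjusted p under 0.05). CD99, a defining surface marker, was listed at 0 in all 4 libraries, as were 14 of the 15 genes in the stretch that the sex chromosomes share, so its 0 does not speak to the cell type. NKX2-2, NR0B1, STEAP1, LIPI and PRKCB, other markers of this tumour, were all counted. Epithelial, blood and endothelial markers summed to 0.0676 to 0.348, 0.348 to 0.541 and 0.511 to 0.745 CPM per library, and KRT5, CD3E and HBB were at 0 in every library.

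Levels per length set SMO at the top and HHIP at the bottom. On the scale of CPM per kilobase of transcript, SMO had 14.4 and 16 with FAT4 and control siRNA at 48 h, and 11.5 and 15.2 at 24 h. GLI3 followed at 7.35 to 8.97 over the 4 libraries, and PTCH1 at 5.68 to 6.71. SMO, GLI3 and PTCH1 did not overlap one another. SUFU, at 4.84 to 5.88, overlapped PTCH1. GLI1, at 2.56 to 6.67, overlapped PTCH1, SUFU and GLI2, and its range was the widest in proportion to its lowest value among the 6 tested genes. GLI2 lay at 1.86 to 3.48, and HHIP at 0.00635 to 0.0269. The highest CPM of a gene divided by its lowest was 2.6 for GLI1, 1.87 for GLI2, 1.39 for SMO, 1.22 for GLI3, 1.21 for SUFU and 1.18 for PTCH1.

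**Figure D1:**
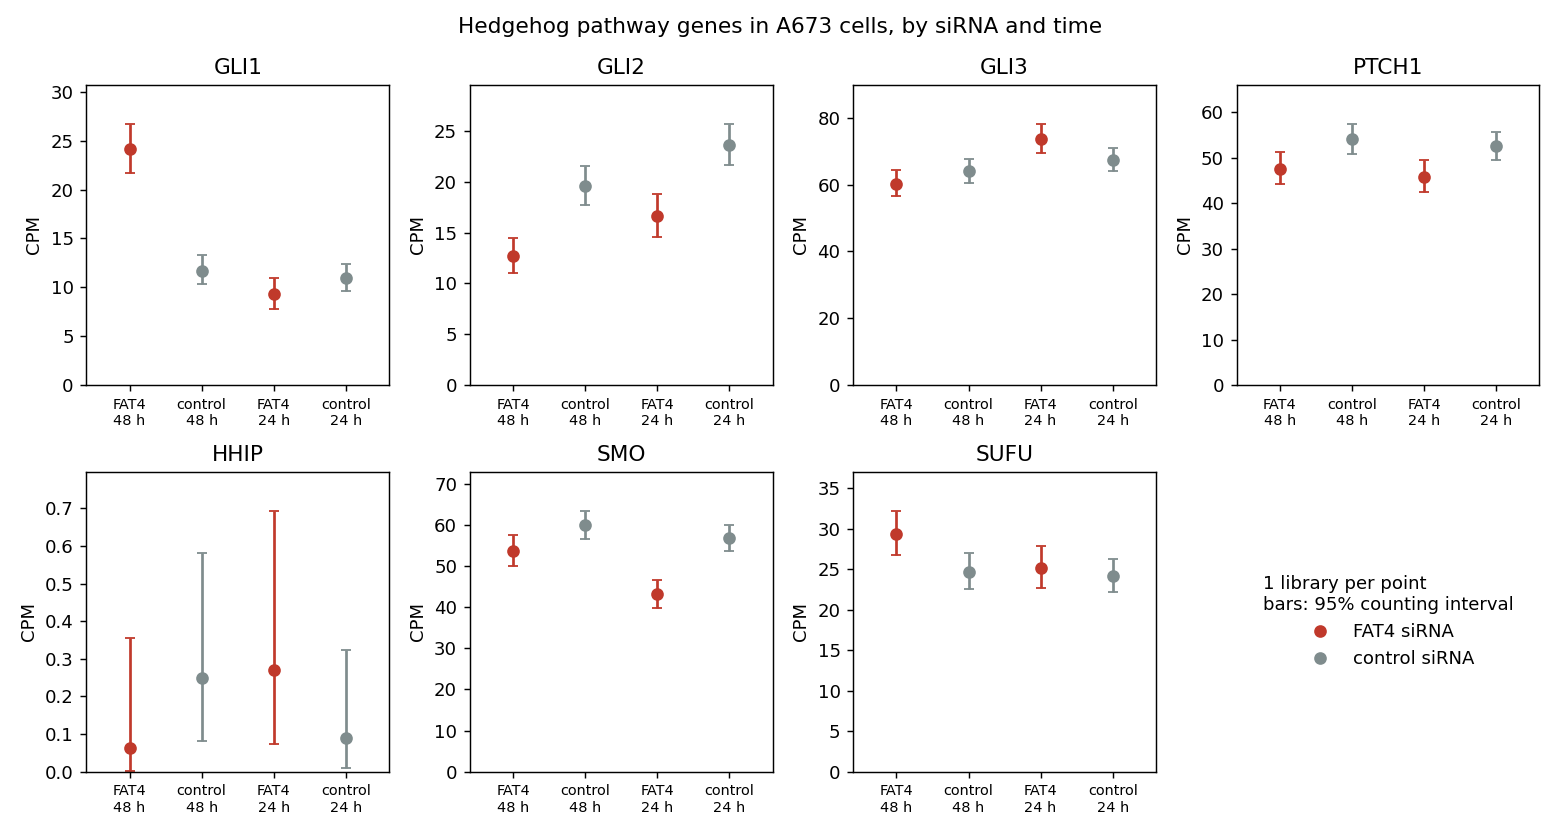
CPM of each of the 7 genes (vertical axes, from 0) in the 4 libraries, FAT4 siRNA in red and control siRNA in grey, with 95% counting intervals as bars. GLI1 stands at 24.1 CPM in the FAT4 siRNA library at 48 h and at 9.27 to 11.7 CPM in the other 3, and GLI2 is lower in each FAT4 siRNA library than in its control.

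The first question was how the FAT4 siRNA changed the GLI factors. GLI1 was 2.06-fold higher with the FAT4 siRNA at 48 h and not at 24 h. GLI1 had 377 counts with FAT4 siRNA and 236 with control siRNA at 48 h, which is 24.1 against 11.7 CPM. At 24 h it had 137 counts with FAT4 siRNA and 244 with control siRNA, which is 9.27 against 10.9 CPM. The FAT4 siRNA library at 48 h alone was high, and the other 3 lay close together. In bulk RNA, a change in the number of cells that hold a transcript and a change of its level in each cell cannot be told apart.

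The GLI1 ratio at 48 h had a 95% counting interval of 1.74 to 2.43. At 24 h the ratio was 0.848, with an interval of 0.683 to 1.05 that holds 1. These intervals, here and below, cover counting error only, since no group has a second culture. The ratio at 48 h divided by that at 24 h was 2.42, with an exact conditional interval of 1.84 to 3.19. On the log2 scale of CPM plus 1 this difference was 1.20, and GLI1 ranked 2 from the highest among 10595 genes whose mean reached 5 CPM. On that scale GLI1 was the 1 gene of the 6 past 1.5-fold higher, where 3.33% of all genes tested were, and 0 of the 6 were past 1.5-fold lower, where 2.85% were. The additive model gives no test of that difference.

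In edgeR's quasi-likelihood fit of siRNA and time over all 4 libraries, GLI1 was called higher, with a log2 fold change of 0.45 (SE 0.16, adjusted p = 0.0221). A gene is called where its Benjamini-Hochberg adjusted p is under 0.05, and 11.9% of the 13712 genes tested were called higher, 14.1% lower and 25.9% in either direction. The mean over both times stands for neither time in GLI1, since it was 1.04 from the 48 h pair alone and -0.24 from the 24 h pair alone. DESeq2 (0.42, adjusted p = 0.731) and a correction for transcript GC content and length (0.59, adjusted p = 0.056) did not call it. A fit with no term for time (0.56, adjusted p = 0.622) did not either. That fit called 0 of all genes tested, so its lack of a call says nothing of GLI1.

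GLI2 was lower at 48 h and at 24 h in the cells given FAT4 siRNA. It had 198 counts with FAT4 siRNA and 394 with control siRNA at 48 h, which is 12.7 against 19.6 CPM, and a ratio of 0.646 (0.542 to 0.769). The counts at 24 h were 245 with FAT4 siRNA and 528 with control siRNA, or 16.6 against 23.6 CPM, and a ratio of 0.701 (0.6 to 0.817). Both FAT4 siRNA libraries were below both control libraries. The share of all genes with such an order was not counted, here or below, so the order alone is no evidence of a change. The edgeR fit called GLI2 lower, with a log2 fold change of -0.57 (SE 0.146, adjusted p = 0.00102). DESeq2 (-0.56, adjusted p = 0.0837) and the GC and length correction (-0.33, adjusted p = 0.0944) kept the sign and did not call it. The fit with no time term (-0.56, adjusted p = 0.378) also kept the sign, and it called 0 of all genes tested.

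GLI3, the most abundant GLI gene per length, had 944 counts with FAT4 siRNA and 1289 with control siRNA at 48 h, which is 60.3 against 64.1 CPM. At 24 h it had 1088 counts with FAT4 siRNA and 1506 with control siRNA, which is 73.6 against 67.4 CPM. The 2 siRNAs overlapped over the 4 libraries, with ratios of 0.942 (0.865 to 1.03) at 48 h and 1.09 (1.01 to 1.18) at 24 h. Its fitted log2 fold change was 0.02 (SE 0.104, adjusted p = 0.905 by edgeR), and it was not called.

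The proportions among the GLI transcripts followed from these values. GLI1 had 1.9 counts for each GLI2 count (1.6 to 2.27) with FAT4 siRNA at 48 h, against 0.599 (0.508 to 0.706) with control siRNA. At 24 h the same count ratio was 0.559 with FAT4 siRNA and 0.462 with control siRNA. Ratios of counts within a library do not depend on the scaling between libraries, but they carry the lengths of both transcripts. GLI2 per GLI3 count was 0.21 with FAT4 siRNA and 0.306 with control siRNA at 48 h, and 0.225 against 0.351 at 24 h.

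**Figure D2:**
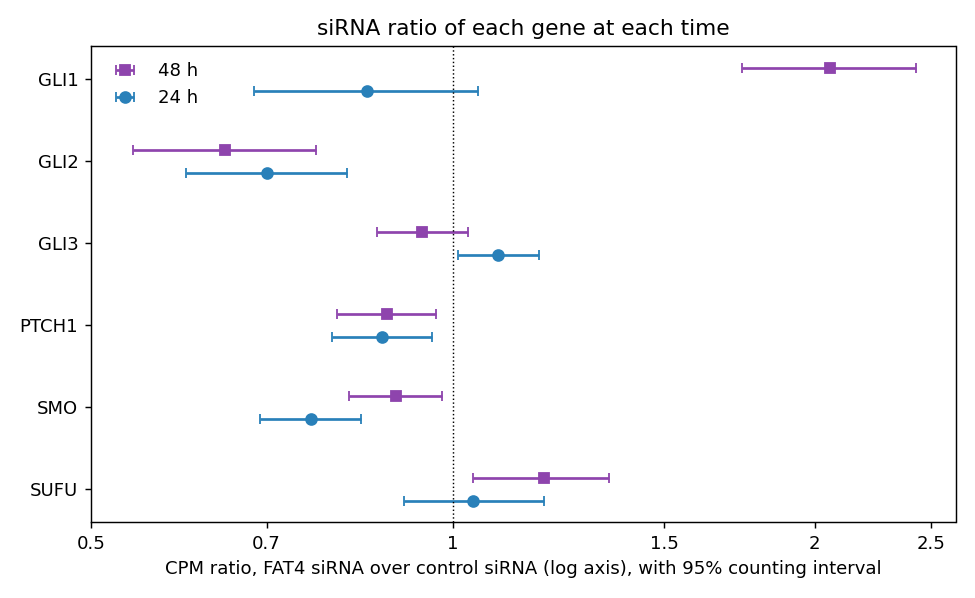
CPM ratio of FAT4 siRNA over control siRNA for 6 genes on a log axis, at 48 h (squares) and 24 h (circles), with 95% counting intervals as bars. GLI1 is at 2.06 at 48 h and 0.848 at 24 h, and GLI2, SMO and PTCH1 lie below 1 at both times.

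Among the receptor and signal transducers, SMO was slightly lower with the FAT4 siRNA. SMO had 840 counts with FAT4 siRNA and 1205 with control siRNA at 48 h, which is 53.7 against 59.9 CPM and a ratio of 0.897 (0.82 to 0.98). Counts at 24 h were 638 with FAT4 siRNA and 1266 with control siRNA, which is 43.2 against 56.7 CPM and a ratio of 0.762 (0.691 to 0.838). Both FAT4 siRNA libraries were below both control libraries, and the lower of them was that at 24 h. The fitted log2 fold change was -0.27 (SE 0.11, adjusted p = 0.0493 by edgeR), just inside the threshold. The adjusted p was 0.0607 with relative log expression scaling, 0.0755 with no filter on low counts and 0.292 with DESeq2, and the log2 fold change was -0.09 (adjusted p = 0.552) after the GC and length correction.

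PTCH1, the ligand receptor and a GLI target, had 745 counts with FAT4 siRNA and 1088 with control siRNA at 48 h, which is 47.6 against 54.1 CPM. At 24 h it had 677 counts with FAT4 siRNA and 1172 with control siRNA, which is 45.8 against 52.5 CPM. Both FAT4 siRNA libraries were below both control libraries by nearly the same proportion, with ratios of 0.881 (0.801 to 0.968) at 48 h and 0.873 (0.793 to 0.96) at 24 h. The fit gave -0.19 (SE 0.111, adjusted p = 0.209 by edgeR), so PTCH1 was not called. GLI1 had 0.506 counts for each PTCH1 count (0.446 to 0.574) with FAT4 siRNA at 48 h and 0.217 (0.188 to 0.25) with control siRNA. At 24 h that ratio was 0.202 (0.167 to 0.243) with FAT4 siRNA and 0.208 (0.181 to 0.239) with control siRNA.

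SUFU, the cytoplasmic inhibitor of GLI factors, had 460 counts with FAT4 siRNA and 498 with control siRNA at 48 h, which is 29.4 against 24.7 CPM and a ratio of 1.19 (1.04 to 1.35). SUFU at 24 h had 373 counts with FAT4 siRNA and 541 with control siRNA, which is 25.2 against 24.2 CPM and a ratio of 1.04 (0.911 to 1.19). Both FAT4 siRNA libraries were above both control libraries, by a small margin at 24 h. The fit gave 0.15 (SE 0.132, adjusted p = 0.413 by edgeR), so SUFU was not called. There were 1.22 SUFU counts for each GLI1 count with FAT4 siRNA at 48 h and 2.11 with control siRNA, and 2.72 against 2.22 at 24 h.

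HHIP, the ligand trap, was close to absent. It had 1 count with FAT4 siRNA and 5 with control siRNA at 48 h, and 4 against 2 at 24 h. These counts lie near the floor of 3, HHIP did not pass the count filter, and no ratio is given.

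Of the 6 genes that passed the filter, 1 was called higher with the FAT4 siRNA and 2 lower, beside 25.9% called among all genes. Their median log2 fold change was -0.08, and that of all genes tested was -0.01. On the scale of CPM plus 1, used for every count past 1.5-fold, 1 of the 6 was at least 1.5-fold higher at 48 h (GLI1) and 1 at least 1.5-fold lower (GLI2), where 4.18% and 7.3% of all genes were. At 24 h none of the 6 was past 1.5-fold in either direction, where 2.24% of all genes were higher and 4.37% lower. The counting interval of the ratio lay above 1 for 2 of the 6 and below 1 for 3 at 48 h, against 27.4% and 28.2% of all genes. At 24 h it lay above 1 for 1 and below 1 for 3, against 24.4% and 27.3%.

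**Figure D3:**
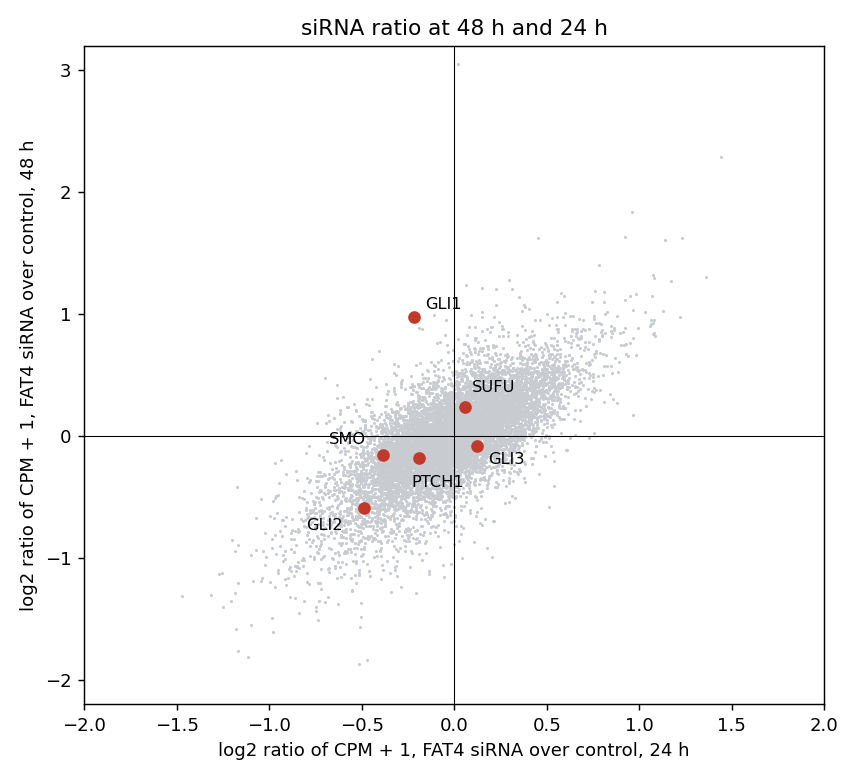
The log2 ratio of CPM plus 1, FAT4 siRNA over control siRNA, at 48 h (vertical) against 24 h (horizontal), for 10595 genes in grey and the 6 named genes in red. GLI1, at 0.98 and -0.22, lies at the upper left edge of the cloud near genes such as TMEM143, at 0.99 and -0.11. The other 5 lie within the cloud.

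Several of these transcripts are rich in G and C, and their siRNA ratios were also computed with GC content taken into account. SMO has 61.5%, GLI2 60.8% and GLI1 58.6% G and C, at percentiles 87.9, 86.1 and 79.5 among tested genes, while GLI3 and PTCH1 have 50.7% and 50.9%. With a correction for GC content and length in each library, the log2 ratio of GLI1 was 1.06 at 48 h and -0.02 at 24 h. That of GLI2 was -0.40 at 48 h and -0.20 at 24 h, and that of SMO was -0.03 and -0.13. GLI1 at 48 h thus kept its size, while the lower values of GLI2 and SMO were smaller. GLI3 was 0.03 and 0.23, PTCH1 was -0.06 and -0.08, and SUFU was 0.34 and 0.24, at 48 h and 24 h in each case. The lower values of PTCH1 were thus smaller too, from -0.18 and -0.19 before the correction. Each tested gene had a higher value after the correction than before it, at both times.

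**Figure D4:**
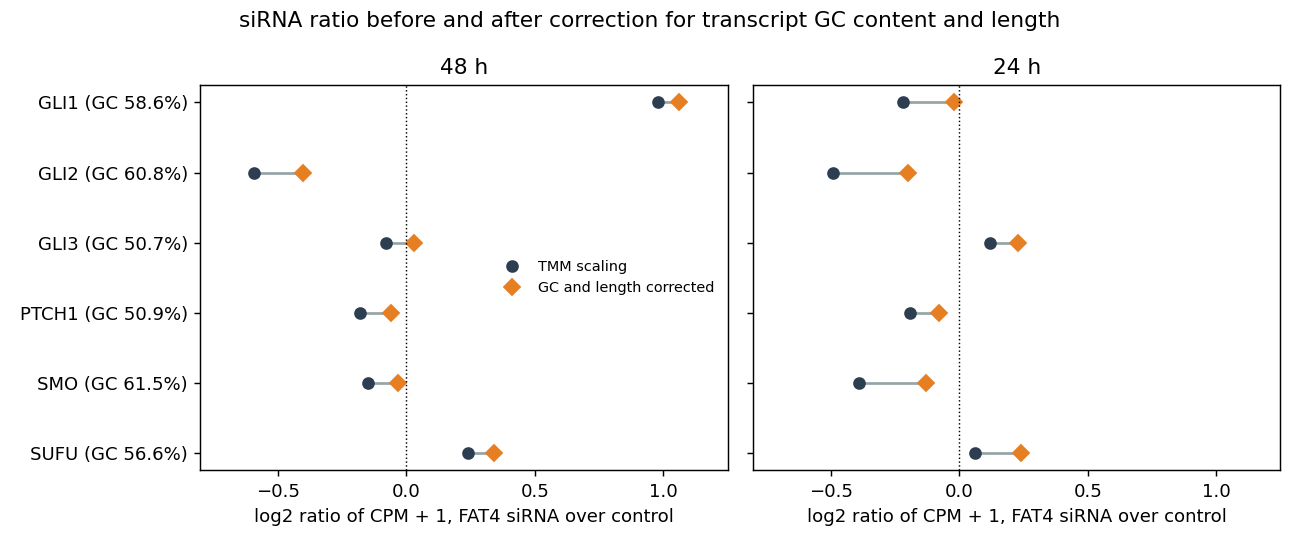
The log2 ratio of CPM plus 1, FAT4 siRNA over control siRNA, for 6 genes at 48 h (left) and 24 h (right), with TMM scaling (circles) and after correction for transcript GC content and length (diamonds). GLI1 at 48 h is 0.98 before and 1.06 after, and GLI2 at 24 h is -0.49 before and -0.20 after.

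The next comparison was 48 h against 24 h with each siRNA. GLI1 was higher at 48 h with the FAT4 siRNA, at 24.1 CPM against 9.27 CPM at 24 h, a ratio of 2.6 (2.13 to 3.19). With the control siRNA it had 11.7 CPM at 48 h and 10.9 CPM at 24 h, a ratio of 1.07 (0.894 to 1.29). The fit over both siRNAs called it higher at 48 h, with a log2 fold change of 0.72 (SE 0.16, adjusted p = 9.59e-05 by edgeR), where 13.8% of all genes were called higher, 12.8% lower and 26.6% in either direction. The log2 fold change was 1.38 from the FAT4 siRNA pair alone and 0.10 from the control pair alone. DESeq2 (0.73, adjusted p = 0.53) and a fit with no siRNA term (0.82, adjusted p = 0.368) did not call it.

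The other 5 tested genes were not called in the time comparison. GLI2 was lower at 48 h with both siRNAs, with ratios of 0.764 (0.63 to 0.925) with FAT4 siRNA and 0.828 (0.725 to 0.946) with control siRNA, and a fitted -0.32 (SE 0.145, adjusted p = 0.0832 by edgeR). SMO had a ratio of 1.24 (1.12 to 1.38) with FAT4 siRNA and 1.06 (0.976 to 1.14) with control siRNA. GLI3 had 0.82 (0.751 to 0.895) and 0.95 (0.881 to 1.02), SUFU 1.17 (1.01 to 1.34) and 1.02 (0.903 to 1.16), and PTCH1 1.04 (0.936 to 1.16) and 1.03 (0.948 to 1.12), with FAT4 and control siRNA in each case. Past 1.5-fold higher at 48 h were 1 of the 6 with the FAT4 siRNA, where 8.42% of all genes were, and 0 of the 6 with the control siRNA, where 5.81% were. The counting interval lay above 1 for 3 of the 6 and below 1 for 2 with the FAT4 siRNA, against 25.6% and 27.7% of all genes, and above 1 for 0 and below 1 for 1 with the control siRNA, against 27.2% and 27.7%. None of the 6 was past 1.5-fold lower, where 3.49% of all genes were with the FAT4 siRNA and 2.36% with the control siRNA. The 2 time ratios and the 2 siRNA ratios of a gene come from the same 4 libraries and do not stand apart from each other.

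The 6 tested genes did not share 1 pattern over the 4 libraries. Likeness was measured as the Euclidean distance between log2 profiles of CPM plus 1, each centred on its mean over the 4 libraries, with 10594 genes ranked for each gene. SMO and PTCH1 were the closest pair, at 0.2, and PTCH1 ranked 475 from SMO. From GLI1, SUFU ranked 1428, SMO 3484, PTCH1 5105, GLI3 7489 and GLI2 10087. The 5 genes nearest to GLI1 were LOC100506190 at a distance of 0.213, the ATP-gated channel gene P2RX4 at 0.216, TMEM143 at 0.226, the mitochondrial enzyme gene CLYBL at 0.253 and the oxysterol receptor gene NR1H3 at 0.271. NR1H3 had 23 CPM with FAT4 siRNA and 10.8 CPM with control siRNA at 48 h, and 10.6 against 9.4 CPM at 24 h. With 4 libraries, such distances describe these libraries only.

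GLI1 lies on chromosome 12 beside INHBE and ARHGAP9 in the RefSeq order, and these genes were looked up after the GLI1 values were seen. INHBE, an inhibin subunit gene, had 6.9 CPM with FAT4 siRNA and 5.12 CPM with control siRNA at 48 h. At 24 h it had 0.203 against 0.671 CPM, from only 3 and 15 counts. It was thus higher at 48 h with both siRNAs, while GLI1 with the control siRNA was at 11.7 CPM at 48 h and 10.9 CPM at 24 h. ARHGAP9 had 6 counts with FAT4 siRNA and 1 with control siRNA at 48 h, and 0 with either at 24 h. MARS, the next gene on that side, had an siRNA ratio of 1.02 at 48 h and 1.01 at 24 h. MARS was also higher at 48 h than at 24 h, at 615 against 367 CPM with FAT4 siRNA and 600 against 362 CPM with control siRNA.

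EWSR1 and FLI1 are the genes joined in the fusion that is known to drive GLI1 in these cells. EWSR1 had 234 CPM with FAT4 siRNA and 222 CPM with control siRNA at 48 h, and 288 against 267 CPM at 24 h. FLI1 had 97.2 against 81.2 CPM at 48 h and 106 against 95.3 CPM at 24 h. Neither was called with the FAT4 siRNA, with log2 fold changes of 0.09 (adjusted p = 0.484 by edgeR) and 0.21 (adjusted p = 0.0974). Gene counts do not separate the fusion transcript from either parent gene. Their part in the GLI1 values was not tested.

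The rest of the pathway was described from 6 lists by role, with 94 genes and 77 tested. With the FAT4 siRNA, 9 were called higher and 9 lower, which is 23.4% of the 77 beside 25.9% of all genes, and their median log2 fold change was -0.03. DESeq2 called 5 of them higher and 4 lower.

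Ligands were at or near 0. SHH had 0 counts in every library. IHH had 1 and 0 counts with FAT4 and control siRNA at 48 h, and 0 and 2 at 24 h, while DHH had 0 and 1 at 48 h and 0 with either at 24 h. For each ligand, 0 counts in a library allow up to the floor of that library, 0.197 CPM at most. Of 8 genes for ligands and their release, 2 were tested and neither was called: the acyltransferase gene HHAT (-0.05, adjusted p = 0.875 by edgeR) and DISP1, which helps release ligands (-0.58, adjusted p = 0.103).

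Of 5 receptor and co-receptor genes, 4 were tested, all with negative fold changes, and 1 was called lower. That is 25.0% called, beside 25.9% of all genes tested. GAS1, a co-receptor anchored in the membrane, had 67.4 CPM with FAT4 siRNA and 117 CPM with control siRNA at 48 h, and 61.8 against 74.4 CPM at 24 h. The fitted log2 fold change of GAS1 was -0.53 (SE 0.101, adjusted p = 3.12e-06 by edgeR). The co-receptor genes BOC (-0.79, adjusted p = 0.0592) and CDON (-0.26, adjusted p = 0.0832) were not called.

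All 21 genes of signal transduction and GLI turnover were tested, with 3 called higher and 4 lower and a median of -0.06. The share called was 33.3%, beside 25.9% of all genes tested. SPOPL, a paralogue of the adaptor SPOP that marks GLI proteins for degradation, had 57.5 CPM with FAT4 siRNA and 28.8 CPM with control siRNA at 48 h, and 60.9 against 25.6 CPM at 24 h. Both FAT4 siRNA libraries stood above both control libraries, and the fitted log2 fold change of SPOPL was 1.13 (SE 0.118, adjusted p = 4.78e-19 by edgeR). DYRK2, a kinase known to act on GLI2, rose by 0.48 (adjusted p = 0.000718). ADRBK1, the receptor kinase GRK2, which acts with SMO, fell by 0.48 (adjusted p = 4.28e-06). KIF7, a ciliary kinesin that regulates GLI factors, fell by 0.48 (adjusted p = 0.0101). The call of KIF7 was lost with DESeq2 (-0.47, adjusted p = 0.201) and after the GC and length correction (-0.22, adjusted p = 0.29).

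Of 28 genes of the ciliary machinery, all tested, 2 were called higher and 2 lower with the FAT4 siRNA, with a median of 0.03. The share called was 14.3%, beside 25.9% of all genes tested. DYNC2H1, the motor of retrograde ciliary transport, had 127 CPM with FAT4 siRNA and 228 CPM with control siRNA at 48 h, and 169 against 195 CPM at 24 h. DYNC2H1 fell by 0.53 (adjusted p = 4.36e-07 by edgeR), and DESeq2 gave a log2 fold change of -0.52 without the call (adjusted p = 0.311). CEP290, of the transition zone, rose by 0.43 (adjusted p = 0.000194). IFT140 (-0.33, adjusted p = 0.0461) and TTC21B (0.30, adjusted p = 0.00856), of intraflagellar transport, were called by edgeR, and both calls were lost with DESeq2 and with the correction for GC content and length.

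Among 24 known GLI target genes, 17 were tested, 2 were called higher and 2 lower, and the median was -0.24. The share called was 23.5%, beside 25.9% of all genes tested. BCL2, a survival gene, had 79.3 CPM with FAT4 siRNA and 43.2 CPM with control siRNA at 48 h, and 73.7 against 40.6 CPM at 24 h. BCL2 rose by 0.87 (SE 0.108, adjusted p = 9.87e-14 by edgeR). NKX2-2, a neural tube factor that is also a target of EWSR1-FLI1, had 38.4 CPM with FAT4 siRNA and 86 CPM with control siRNA at 48 h, and 52.4 against 76.4 CPM at 24 h. NKX2-2 fell by 0.85 (SE 0.107, adjusted p = 2.21e-13). HSD11B2 fell by 1.22 (adjusted p = 0.0053) from low counts, 21 and 54 with FAT4 and control siRNA at 48 h and 12 and 52 at 24 h, and DESeq2 gave it no adjusted p. The cyclin gene CCND1 rose by 0.24 (adjusted p = 0.0324), a call lost with DESeq2 at a like size (0.25, adjusted p = 0.102).

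The GLI-related zinc finger list held 9 genes, of which 6 were tested and 2 called higher. The share called was 33.3%, beside 25.9% of all genes tested. ZIC5 had 92.1 CPM with FAT4 siRNA and 44.9 CPM with control siRNA at 48 h, and 85.2 against 47.6 CPM at 24 h, and it rose by 0.94 (SE 0.104, adjusted p = 6.31e-17 by edgeR). ZIC2 rose by 0.30 (adjusted p = 0.00802), and DESeq2 gave 0.31 without the call (adjusted p = 0.0835). The ZIC genes encode relatives of the GLI factors with similar zinc fingers.

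**Figure D5:**
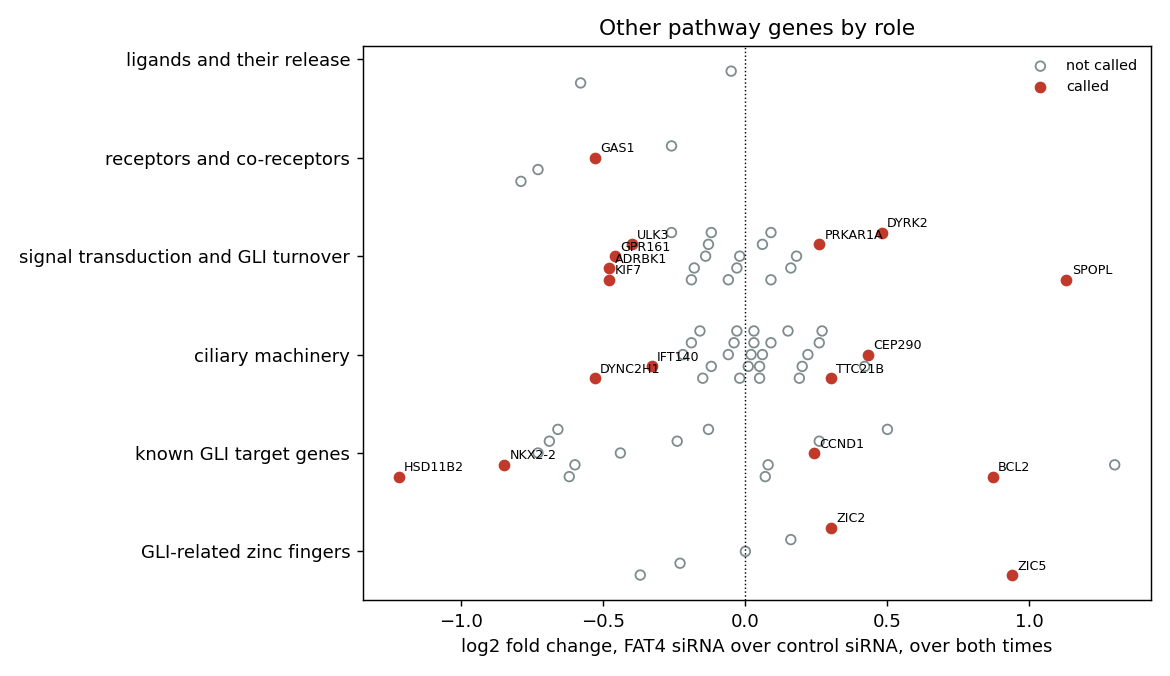
Fitted log2 fold change, FAT4 siRNA over control siRNA over both times, for the tested genes of 6 lists by role, filled red where called at an adjusted p under 0.05. SPOPL at 1.13, ZIC5 at 0.94 and BCL2 at 0.87 are on the right, and HSD11B2 at -1.22 and NKX2-2 at -0.85 on the left.

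Between 48 h and 24 h, 13 of the 77 genes were called higher and 6 lower, 24.7% beside 26.6% of all genes. In the ciliary list 9 of 28 were called higher and 2 lower, which is 39.3% of that list. TMEM231 and TMEM107, of the ciliary transition zone, rose by 0.64 (adjusted p = 0.00012 by edgeR) and 0.64 (adjusted p = 0.00269), and IFT80, of intraflagellar transport, rose by 0.53 (adjusted p = 4.57e-05). GAS1 rose by 0.40 (adjusted p = 0.000727), a mean of unlike ratios. Its ratio was 1.09 (0.999 to 1.19) with FAT4 siRNA and 1.57 (1.47 to 1.67) with control siRNA. Of the transduction list, ADRBK2 rose by 0.76 (adjusted p = 0.0265), NUMB rose by 0.34 (adjusted p = 0.00316) and the kinase gene ULK3 fell by 0.45 (adjusted p = 7.66e-05). Among the GLI targets, the Notch ligand gene JAG2 rose by 0.48 (adjusted p = 0.0163) and the cell cycle factor FOXM1 fell by 0.27 (adjusted p = 0.0142). DESeq2 called 2 of the 77 higher and 1 lower, and TMEM107, GAS1, ADRBK2, NUMB, JAG2 and FOXM1 were not among its calls. FOXM1 was not called with library totals alone (adjusted p = 0.0644), nor ADRBK2 after the GC and length correction (adjusted p = 0.053).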

How the data were processed

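RNA of A673 cells was sequenced in 4 libraries, 1 for each siRNA and time, from TruSeq stranded mRNA libraries, per the labels' protocols. Tools were CASAVA 1.8.2, TopHat2, SAMtools and HTSeq, on hg19, per the submitters' processing notes. The authors deposited raw read counts per gene, as whole numbers. The sources used here do not give the annotation, the strand setting or the siRNA sequences, so counts of overlapping or antisense genes are uncertain. Entries that name no gene were left out: reads outside genes were 19.48% to 20.54% of assignable reads and ambiguous reads 0.772% to 0.804%.

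The counts were filtered with filterByExpr (minimum count 10, total 15), which kept 13712 genes, scaled by TMM and fitted in edgeR 4.0.16 (R 4.3.3). The quasi-likelihood fit, with additive siRNA and time terms over the 4 libraries, tested each term, two-sided, with Benjamini-Hochberg adjustment at 0.05. With 1 residual degree of freedom and infinite prior ones, dispersion came from a single trend over genes, with a common coefficient of biological variation of 0.0737. Its p-values thus do not measure how cultures vary. At each time CPM ratios were taken with exact 95% Clopper-Pearson intervals, and log2 ratios of CPM plus 1, which understate changes of low genes. The fit was tested on simulated data with a fixed dispersion close to the fitted one and the same siRNA change at both times. That test does not speak to how cultures vary, or to a gene such as GLI1 whose siRNA ratio differed between times.

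Alternatives were DESeq2 1.42.0, other scalings, filters and pseudocounts, single-factor fits, and a spline correction for GC content (5 degrees of freedom) and length (4), with GENCODE 29 transcripts matched for 95.27% of tested genes. Promoters came from RefSeq on GRCh38.p14, another build than the counts. Named genes were the 7 genes, FAT4, EWSR1 and FLI1, the ligands, the 5 genes nearest to GLI1, and from each list up to 4 genes called for siRNA and 3 for time by size of change. BOC, CDON, HHAT and DISP1 as the other tested genes of their lists, the genes beside GLI1 and the Ewing markers named were picked after their values were seen. A gene that the rule names is not reported here. The members and lists were chosen with earlier results of these data known.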

Additional observations from a re-analysis of the deposited data

Results flagged for a closer look

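GLI1 and GLI3 had siRNA ratios of opposite sign at 48 h and 24 h. For GLI1 the log2 ratio of CPM plus 1, FAT4 siRNA over control siRNA, was 0.98 at 48 h and -0.22 at 24 h. For GLI3 it was -0.08 at 48 h and 0.12 at 24 h. The counting interval of the plain ratio held 1 for GLI1 at 24 h (0.683 to 1.05) and for GLI3 at 48 h (0.865 to 1.03). After the GC and length correction GLI3 was positive at both times, 0.03 at 48 h and 0.23 at 24 h. GLI1 was then 1.06 at 48 h and -0.02 at 24 h. With 1 library for each siRNA and time, neither difference was tested. The intervals of the ratio at 48 h divided by that at 24 h, which cover counting error only, were 1.84 to 3.19 for GLI1 and 0.768 to 0.969 for GLI3.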

How the results depend on the processing

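No paired analysis was possible because each siRNA and time has 1 library and the labels carry no replicate numbers. Of the 6 genes tested for the FAT4 siRNA, 1 was called higher and 2 lower. With DESeq2, the GC and length correction or no time term, 0 were called higher and 0 lower, although at an unadjusted p under 0.05 there were 0 higher and 1 lower by DESeq2, 2 and 1 after the correction, and 0 and 1 with no time term. With relative log expression scaling or no filter on low counts, 1 was called lower. Over all genes, 3555 were called, against 1234 by DESeq2 and 0 with no time term (1706 at an unadjusted p under 0.05). For time, 1 of the 6 was called higher, against 0 by DESeq2 (0 also at an unadjusted p under 0.05) and 0 with no siRNA term (1 unadjusted), and over all genes 3646, against 1176 by DESeq2 and 50 with no siRNA term. Of the 77 wider genes, 9 were called higher and 9 lower with the FAT4 siRNA, against 5 and 4 by DESeq2 and 0 and 0 with no time term. For time, 13 were called higher and 6 lower, against 2 and 1 by DESeq2, 0 and 0 with no siRNA term, and 1 lower with library totals alone. At 48 h, 1 of the 6 was at least 1.5-fold lower, and 0 with relative log expression scaling, a pseudocount of 5 CPM or the GC and length correction. The cause was not tested. Leaving out either library of a time leaves the other time: the log2 fold change of GLI1 was -0.24 without a 48 h library and 1.04 without a 24 h library. For GLI1 over time it was 0.10 without a FAT4 siRNA library and 1.38 without a control library. No scaling moved the median of all genes by over 0.1. HHIP and the ligands had at most 5 counts in a library, too few for a ratio.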
